A study of Saccharomyces cerevisiae with 24 samples.

Results

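The step from 15 to 30 min after cadmium addition was examined in budding yeast from chromatin treated with MNase, a nuclease from Micrococcus that digests the DNA between bound proteins. All 4427 open reading frames (ORFs) that carry both chromatin measures were taken, out of 6575 ORFs in the expression data of the same series, and the 30 min values were set against the 15 min values. The chromatin samples of these times number 4 of the 24 samples in the series, with 2 at 30 min and 2 at 15 min. Both groups were cells of the laboratory strain W303 of mating type MATa. It carries a double mutation of LEU2 and the alleles his3-11,15 and trp1-1, which block synthesis of amino acids, together with ura3-1 and ade2-1, which block synthesis of nucleotides, and can1-100, a mutation of the arginine permease gene. Cultures grew in rich medium at 30C, and cadmium chloride was added to 1 mM after the sample at 0 min had been taken, so that 30 min and 15 min differ by label in the length of exposure to 1 mM cadmium. Each time has its own libraries, and time and library cannot be told apart. The other times of the course are 0, 7.5, 60 and 120 min.

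The series text calls the chromatin replicates technical, and each deposited column stands for a whole time point. No column names a replicate, so the spread between replicates is not known, no test was possible, and each value below is the authors' value for that time. Changes were read against fixed sizes and, for promoters, against counting error.

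In promoters, short MNase fragments come from DNA held by proteins smaller than a nucleosome, such as transcription factors and the transcription machinery. The number of small fragments upstream of an ORF is therefore a measure of occupancy by such proteins. Nucleosomes over a gene body usually lie in a regular array counted from the start of the gene, and the array loses its order when polymerases pass often or nucleosomes are evicted. The entropy score of a gene body is high where nucleosome positions are disordered and low where they are regular. Cadmium binds thiol groups and causes proteins to misfold. In yeast, misfolded protein sets off the heat shock response, in which the factor Hsf1 binds the promoters of chaperone genes and drives very strong transcription. Heat shock genes are known for losing their nucleosomes during such activation.

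The promoter values are counts of small fragments. They summed to 815195 fragments at 30 min and 723179 at 15 min, a ratio of 1.13, with a median of 173 fragments per promoter at 30 min and 157 at 15 min. Left unscaled, this difference between the columns moved the median promoter by 0.14 on the log2 scale. Whether it comes from sequencing depth was not tested. Each column was therefore divided by its median, and a promoter change is the difference of log2(scaled count + 0.1). A counting error, the standard error expected from the fragment counts alone, stands beside it after ±. The entropy scores ranged between 5.81 and 7.235 over all times, and 1.42% of gene bodies at 30 min and 1.54% at 15 min lay at or above 7.2, near the top of the range. The depth behind the entropy score is unknown. As a check of the strain label, the a mating type genes were expressed at both times, between 58.7 and 350 TPM (an mRNA level corrected for transcript length and sequencing depth) at 30 min and between 116 and 418 TPM at 15 min. Of the alpha mating type genes, MF(ALPHA)1 had 0 TPM at 30 min and 0.145 TPM at 15 min, MF(ALPHA)2 had 0.306 and 0.397 TPM, STE3 had 4.32 and 1.81 TPM, and SAG1 had 25.5 and 20.2 TPM, each with the 30 min value before the 15 min value. In bulk samples, a change in a share of the cells and a smaller change in all cells cannot be told apart.

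Promoter occupancy changed at few genes. A promoter was counted as changed at an absolute log2 change of at least 0.5, which 130 of the 4427 promoters reached (2.94%). Of these, 65 rose at 30 min relative to 15 min (1.47%) and 65 fell (1.47%). The changes ran between -1.14, at SSE1, and 0.98, at PDC6, with a median of 0.0163 and quartiles of -0.119 and 0.147. Counting error had a median of 0.145 and accounted for 52.9% of the variance of the changes, and 78 of the 130 counted promoters had a change of more than 3 counting errors. Promoters with few fragments were over-represented among them, since the 130 had a median of 93 fragments against 166 over all promoters. The even split of rises and falls depends on the scaling. The columns as deposited gave 189 rises and 25 falls, and columns divided by their total gave 43 rises and 81 falls. The number also depends on the pseudocount, with 248 promoters at a pseudocount of 0 and 18 at 0.4.

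For gene body entropy the size counted was a difference of 0.2 or more in either direction, which 144 gene bodies reached (3.25%). Entropy rose in 100 of them (2.26%) and fell in 44 (0.994%). Most gene bodies were slightly more disordered at 30 min, with 2916 above 0, 1481 below 0 and 30 equal, and the median difference was 0.025. Once the column medians were subtracted, 50 gene bodies rose and 66 fell, so the excess of rises depends on that small shift of all gene bodies. The largest falls were far larger than the largest rises. Entropy fell by up to 1.02, at SSE1, whereas the largest rise was 0.45, at CAF120.

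**Figure D1:**
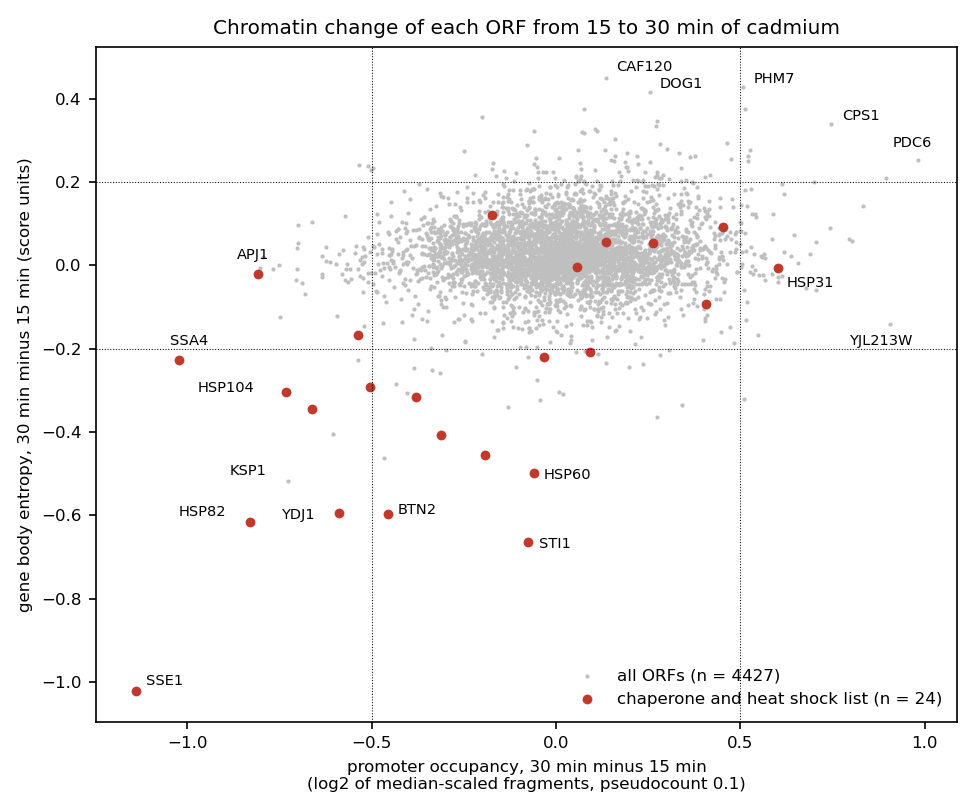
Each point is an ORF, with the promoter change at 30 min relative to 15 min on the x axis (log2 of median-scaled fragments) and the entropy difference on the y axis (score units); dotted lines mark changes of 0.5 and 0.2. The 24 genes of the chaperone and heat shock list (red) are 7 of the 10 ORFs in the lower left corner, with SSE1 at -1.14 and -1.02 farthest out, and the rises at the upper right, such as PDC6 and CPS1, are smaller.

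Chaperone genes gave 15 of the 44 entropy falls (34.1%) and 9 of the 65 promoter falls (13.8%), the largest of each among them. Of 31 genes in a list of cytosolic and mitochondrial chaperones and heat shock factors, 24 were in the chromatin tables. Entropy fell in 15 of the 24 (62.5%) and rose in 0, against 0.994% and 2.26% of all ORFs. Promoter occupancy fell in 9 (37.5%) and rose in 1, HSP31, against 1.47% of all ORFs in each direction. In 7 genes both measures fell, and in 7 genes neither did. The list had a median promoter change of -0.25 and a median entropy difference of -0.26, against 0.016 and 0.025 over all ORFs, and both list medians were negative under every scaling tried. Subtracting the column medians lowers every entropy difference, so it could not turn the entropy median positive. The list was drawn up with earlier results of these data known, and its counts are a description.

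The first of the chaperone groups is the Hsp70 system, which folds nascent and stressed proteins in cycles of ATP binding. SSE1 encodes an Hsp110 protein that exchanges nucleotide on Hsp70 and lies on chromosome XVI between 350194 and 352275 in the R64 build. Its promoter had 65 fragments at 30 min and 149 at 15 min, a change of -1.14 ± 0.18, the lowest of all promoters. The entropy of its gene body was 6.174 at 30 min and 7.195 at 15 min. It fell by 1.021, the largest difference in the data, and at 30 min the gene body was more ordered than before cadmium, when the score was 6.583. The mRNA of SSE1 stood at 2239.9 TPM at 30 min and 2449.1 TPM at 15 min (log2 difference -0.13).

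SSA4, the most strictly stress-inducible cytosolic Hsp70 gene, gave the second largest promoter fall, with 34 fragments at 30 min and 79 at 15 min (-1.02 ± 0.21). Its promoter had had 33 fragments before cadmium. Entropy over SSA4 fell by 0.226, to 6.617 at 30 min against 6.843 at 15 min, and its mRNA was 815.5 TPM at 30 min and 1044.5 TPM at 15 min. The other SSA genes were not in the chromatin tables, and whether reads shared between the similar SSA copies were kept is not given in the sources used here, so the SSA4 values are uncertain. FES1, a second nucleotide exchange factor for Hsp70, behaved differently at the promoter. It had 288 fragments at 30 min and 301 at 15 min, a change of -0.19 ± 0.11 that did not reach the size counted. Its gene body entropy nevertheless fell by 0.455, to 6.478 at 30 min against 6.933 at 15 min, and its mRNA was 169.3 TPM at 30 min and 1487.9 TPM at 15 min.

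J-domain proteins deliver unfolded clients to Hsp70 and start its ATP hydrolysis. YDJ1, the main cytosolic one, fell in both measures, with 132 promoter fragments at 30 min and 188 at 15 min (-0.59 ± 0.15) and an entropy of 6.512 at 30 min and 7.106 at 15 min. At 30 min its gene body was more ordered than before cadmium, when the score was 6.842. SIS1, an essential J-domain protein that also takes part in keeping Hsf1 in check, had 224 fragments at 30 min and 269 at 15 min (-0.38 ± 0.12), and its entropy fell by 0.315, to 6.844 at 30 min against 7.159 at 15 min. APJ1 showed the opposite combination to SIS1. Its promoter fell by 0.81 ± 0.13 on the log2 scale, with 161 fragments at 30 min and 268 at 15 min, while the gene body entropy was 6.936 at 30 min and 6.957 at 15 min. The mRNA of these genes was 522.8 TPM at 30 min and 2060.0 TPM at 15 min for YDJ1, 542.5 and 2716.5 TPM for SIS1, and 21.1 and 117.8 TPM for APJ1. All 3 mRNAs were lower at 30 min by over 1 in log2. HLJ1 and JJJ2 are J-domain genes outside the list. Entropy fell by 0.259 over HLJ1 and by 0.212 over JJJ2. They are named because of these falls, and the other J-domain genes outside the list were not surveyed. The score of JJJ2 was 7.217 before cadmium and 6.737 at 120 min, so it did not return as the list median did.

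Hsp90 matures kinases, receptors and other late-folding clients, with the help of co-chaperones. HSP82, its stress-inducible gene, lies on chromosome XVI between 96496 and 98625 and fell in both measures. Its promoter had 185 fragments at 30 min and 311 at 15 min (-0.83 ± 0.12), and its entropy was 6.599 at 30 min and 7.215 at 15 min. HSC82, the constitutive copy, had 222 fragments at 30 min and 254 at 15 min (-0.31 ± 0.12), and its entropy fell by 0.406, to 6.763 at 30 min against 7.169 at 15 min. Both gene bodies thus became more ordered, and only the inducible copy reached the size counted at the promoter, although the difference between the copies was not tested. Their mRNAs were 727.4 TPM at 30 min and 3084.9 TPM at 15 min for HSP82 and 2763.7 and 3385.8 TPM for HSC82. HSP82 and HSC82 are nearly identical in sequence and how shared reads were treated is not given in the sources used here, so the values of either copy are uncertain.

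Among the co-chaperones, STI1, which bridges Hsp70 and Hsp90, had the second largest entropy fall of all gene bodies (-0.663). The score was 6.201 at 30 min and 6.864 at 15 min, and the promoter had 270 fragments at 30 min and 259 at 15 min (-0.08 ± 0.12). CPR6, a peptidyl-prolyl isomerase that binds Hsp90, fell in both measures, with 126 fragments at 30 min and 190 at 15 min (-0.66 ± 0.15) and an entropy difference of -0.345. Its mRNA was 1400.6 TPM at 30 min and 1439.1 TPM at 15 min. The remaining Hsp90 co-chaperones of the list that have chromatin values did not reach the size counted in either measure. AHA1, an activator of the Hsp90 ATPase, had a promoter change of -0.17 ± 0.13 and an entropy difference of 0.12. SBA1, the yeast p23 protein, had a promoter change of 0.45 ± 0.12, and CDC37, which brings kinases to Hsp90, had changes of 0.14 ± 0.15 at the promoter and 0.057 in entropy. Their log2 mRNA differences were -1.23 for AHA1, 0.91 for SBA1 and 0.98 for CDC37. HSF1 itself, the regulator, had 0.06 ± 0.15 at the promoter and -0.005 in entropy.

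HSP104, the disaggregase that pulls proteins out of aggregates, had 170 fragments at 30 min and 267 at 15 min (-0.73 ± 0.13), and its entropy fell by 0.304, to 6.802 at 30 min against 7.106 at 15 min. Its mRNA was 1324.2 TPM at 30 min and 3175.5 TPM at 15 min. BTN2 and CUR1 encode related factors that sort misfolded proteins to deposits in the cell. The entropy of BTN2 fell by 0.597, to 6.594 at 30 min against 7.191 at 15 min, beside 143 fragments at 30 min and 184 at 15 min (-0.46 ± 0.15), and that of CUR1 fell by 0.292, beside a promoter change of -0.50 ± 0.13. BTN2 had the largest mRNA decrease among all ORFs with chromatin values, at 56.6 TPM at 30 min and 2292.8 TPM at 15 min (log2 difference -5.32).

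Small heat shock proteins hold unfolded proteins in a state from which they can be refolded. Of the pair in the tables, HSP42 fell in entropy by 0.221, with 327 promoter fragments at 30 min and 304 at 15 min (-0.03 ± 0.11). HSP26 had 153 fragments at 30 min and 113 at 15 min (0.26 ± 0.16) and an entropy difference of 0.054, and its mRNA was higher, at 717.7 TPM at 30 min and 316.4 TPM at 15 min. HSP31, a methylglyoxalase of the stress response, was the one list member whose promoter rose, with 91 fragments at 30 min and 49 at 15 min (0.60 ± 0.20). Its gene body was disordered at both times, at 7.182 at 30 min and 7.189 at 15 min.

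Gene body and promoter changed separately among the mitochondrial chaperones. HSP60, the chaperonin of the matrix, fell by 0.497 in entropy, to 6.135 at 30 min against 6.632 at 15 min, while its promoter had 405 fragments at 30 min and 384 at 15 min (-0.06 ± 0.10). MDJ1, the matrix J-domain protein, fell by 0.208 in entropy with a promoter change of 0.09 ± 0.10. SSC1, the matrix Hsp70, had 461 fragments at 30 min and 312 at 15 min (0.41 ± 0.10) and an entropy difference of -0.092, neither of which reached the size counted. HSP78, the mitochondrial disaggregase, had a promoter change of -0.54 ± 0.14, past the size counted, and an entropy difference of -0.166.

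**Figure D2:**
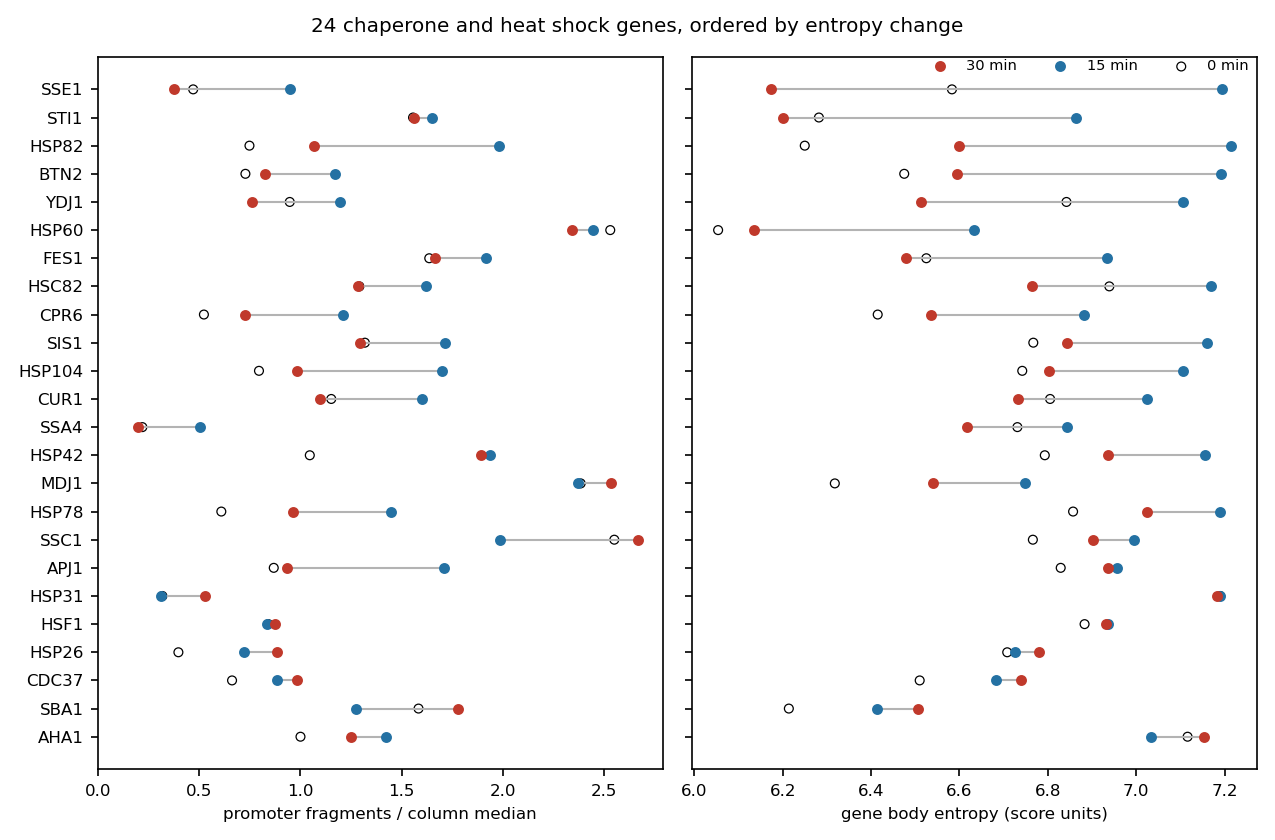
The 24 chaperone and heat shock genes, one per row in order of entropy change, with median-scaled promoter fragments on the left and gene body entropy (score units) on the right at 30 min (red), 15 min (blue) and 0 min (open). In the upper rows the red points lie left of the blue ones in the entropy panel (a difference of -1.021 at SSE1), and the promoter panel shows a comparable step for SSE1, HSP82, HSP104, APJ1 and CPR6 but not for STI1 or HSP60.

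Over the whole course, the chaperone list had higher medians at 15 min and again at 120 min than at 30 min. The median entropy of the 24 genes ran through 6.74, 6.93, 7.01, 6.74, 6.88 and 6.99 from 0 to 120 min. Their median scaled promoter occupancy was 0.91, 1.47, 1.52, 1.03, 1.19 and 1.49 in the same order of times. Entropy at 15 min was above that at 0 min in 22 of the 24 genes (91.7%, against 34.9% of all ORFs), and at 30 min it was below the 0 min score in 8 (33.3%, against 54.1% of all ORFs). It was higher again at 60 min than at 30 min in 20 of 24 (68.7% of all ORFs) and at 120 min than at 30 min in 21 of 24 (60.2% of all ORFs). Scaled occupancy at 120 min was above that at 30 min in 17 of the 24, against 45.9% of all ORFs. At SSE1 the score ran through 6.583, 7.121, 7.195, 6.174, 6.646 and 7.171 over the 6 times, and the fragment count through 71, 115, 149, 65, 98 and 184.

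**Figure D3:**
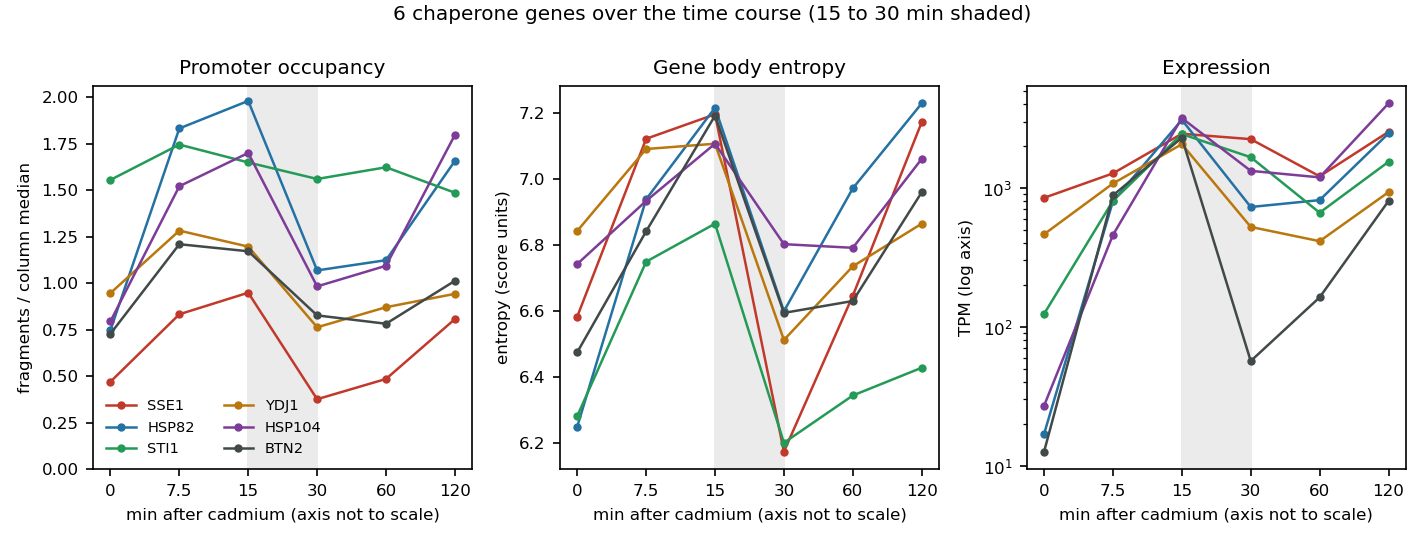
Median-scaled promoter fragments (left), gene body entropy in score units (middle) and expression in TPM on a log axis (right) of 6 chaperone genes over the 6 times, with the 15 to 30 min step shaded; the time axis is not to scale. All 6 have lower entropy at 30 min than at 15 min and a higher score at 120 min than at 30 min, with STI1 only at 6.428 at 120 min, while SSE1 and STI1 stay above 1600 TPM at 30 min and BTN2 drops to 56.6 TPM.

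Entropy and mRNA did not always move together among the chaperones. Over all ORFs, 6.8% had mRNA lower by 1 or more in log2. Of the 15 chaperone genes whose entropy fell, 9 had mRNA lower by as much, and 6 did not. Those 6 were CPR6, SSE1, HSC82, SSA4, HSP60 and STI1, with log2 mRNA differences between -0.55 and -0.04. TPM is the level of mRNA present at a time, which depends on its decay as well as on its synthesis.

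The other 29 gene bodies whose entropy fell were of several kinds. KSP1, a protein kinase of nutrient signalling, had a score of 6.605 at 30 min and 7.123 at 15 min (-0.518), and its promoter fell as well, with 93 fragments at 30 min and 150 at 15 min (-0.73 ± 0.17). APA1, a dinucleotide phosphorylase, fell by 0.461 in entropy, to 6.316 at 30 min against 6.777 at 15 min. OLA1, a conserved ATPase, fell by 0.404 in entropy and by 0.60 ± 0.20 at the promoter. SGT2, which hands tail-anchored membrane proteins to their targeting factors, fell by 0.307, and UBC4, a ubiquitin-conjugating enzyme for misfolded and short-lived proteins, by 0.243. RPN4, the transcription factor of proteasome genes, fell by 0.202 in entropy while its promoter had 647 fragments at 30 min and 472 at 15 min (0.31 ± 0.09). STE6, the exporter of a-factor, fell in both measures (-0.54 ± 0.16 at the promoter and -0.226 in entropy).

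Ribosomal protein genes supplied 5 of the falls, among them RPL28 (-0.305), RPS22B (-0.275), RPL27A (-0.234) and RPS10B (-0.212). They are 4.5% of the 111 cytosolic ribosomal protein genes in the tables, against 0.994% of all ORFs. Over the 111 genes the median entropy differences were -0.012 for the small and -0.022 for the large subunit. Many ribosomal protein genes have a near-identical second copy, so values of a single copy are uncertain. A further 4 falls lay directly beside a chaperone gene. These were TAH11 beside SSC1 (-0.364), YAR1 beside HSP82 (-0.321), LST8 beside SIS1 (-0.246) and NIS1 beside APJ1 (-0.205). Over all 47 ORFs next to a gene of the chaperone list, the median entropy difference was 0.01, and entropy fell in 4 (8.51%, against 0.994% of all ORFs) and rose in 1. Of their promoters 2 rose (4.26%) and 3 fell (6.38%), against 1.47% of all promoters in each direction. Of the 29 gene bodies outside the list, 14 had mRNA lower by at least 1 and 0 had mRNA higher by as much. Over all ORFs, 6.8% had mRNA lower and 5.33% had mRNA higher by at least 1.

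Promoter falls outside the chaperones included 4 of 22 genes of glycolysis and fermentation, against 1.47% of all promoters. ADH1, the main alcohol dehydrogenase, had 125 fragments at 30 min and 204 at 15 min (-0.77 ± 0.15). ENO2, an enolase, had 93 fragments at 30 min and 153 at 15 min (-0.75 ± 0.17), PFK1, a phosphofructokinase subunit, had 27 and 54 (-0.79 ± 0.23), and TDH2, a glyceraldehyde-3-phosphate dehydrogenase, had 235 and 314 (-0.53 ± 0.12). Their gene bodies were disordered at both times and differed by at most 0.021 in entropy. None had mRNA lower by 1 or more: ADH1 had 5660.1 TPM at 30 min and 5673.4 TPM at 15 min, ENO2 8577.8 and 8336.5 TPM, PFK1 707.2 and 827.2 TPM, and TDH2 5131.9 and 3098.8 TPM. In that list 1 promoter rose, PDC6, and the median change was -0.17. Of the 22 changes 15 were below 0, against 2054 of 4427 over all ORFs. The median of the list stayed below 0 with the columns as deposited (-0.053). ENO and TDH genes have near-identical copies, so their separate values are uncertain.

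Other promoter falls were spread over several lists. STM1, a protein that preserves idle ribosomes, had 31 fragments at 30 min and 58 at 15 min (-0.75 ± 0.22), after 157 before cadmium, and its mRNA was 1439.1 TPM at 30 min and 3208.1 TPM at 15 min. NOP7 and MAK16, assembly factors of the large ribosomal subunit, fell by 0.57 ± 0.18 and 0.55 ± 0.23. NOP7 shares its upstream region with GTF1, which fell by 0.57 ± 0.18, and the divergent pair is separated by 281 bp, so that fragments between them may count for both. CLB2, the main mitotic cyclin, fell by 0.69 ± 0.23, TIP1, a cell wall mannoprotein, by 0.66 ± 0.16, HMG1, an HMG-CoA reductase of sterol synthesis, by 0.53 ± 0.15, and YAP6, a stress regulator whose gene lies next to HSP78, by 0.71 ± 0.18. DAT1, an AT-rich DNA binding protein, fell by 0.80 ± 0.23 on 28 fragments at 30 min and 56 at 15 min. Counts as low as those of DAT1, PFK1, STM1, MAK16 and CLB2 leave wide counting errors.

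The largest promoter rise was at PDC6. This minor pyruvate decarboxylase isozyme, poor in sulfur amino acids, lies on chromosome VII between 651290 and 652981 and had 278 fragments at 30 min and 120 at 15 min (0.98 ± 0.14). Its entropy was 7.086 at 30 min and 6.833 at 15 min, and its mRNA was 581.9 TPM at 30 min and 12.5 TPM at 15 min. CTT1, the cytosolic catalase, is the divergent neighbour of PDC6 at a distance of 1652 bp, and its own promoter rose as well, with 58 fragments at 30 min and 28 at 15 min (0.65 ± 0.23). Both were higher still in later samples, with 487 fragments at 60 min and 581 at 120 min for PDC6 and 116 and 94 for CTT1.

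CIT2, the peroxisomal citrate synthase, had 210 fragments at 30 min and 100 at 15 min (0.83 ± 0.16), with 591.1 TPM at 30 min and 163.2 TPM at 15 min. BAG7, a GTPase-activating protein for Rho1, had 246 fragments at 30 min and 122 at 15 min (0.80 ± 0.14), with 23.4 and 2.34 TPM. UBC5, a ubiquitin-conjugating enzyme close to Ubc4 and the more stress-inducible of the pair, had 322 fragments at 30 min and 173 at 15 min (0.71 ± 0.13). Its entropy difference was -0.059, and UBC4, whose entropy fell, had a promoter change of -0.11. SIL1, a nucleotide exchange factor for the endoplasmic reticulum Hsp70, rose to 252 fragments at 30 min, against 144 at 15 min (0.61 ± 0.14). OM45, a protein of the mitochondrial outer membrane, rose by 0.80 ± 0.21, FET5, a vacuolar multicopper oxidase of iron handling, by 0.74 ± 0.22, ARN2, a siderophore transporter, by 0.50 ± 0.21, and TAE1, a methyltransferase of ribosomal proteins, by 0.70 ± 0.23. YJL213W (0.91 ± 0.17) and YGR122W (0.90 ± 0.20), known by their systematic names, came next after PDC6 in size. RPL25, by contrast, rose by 0.52 ± 0.12 at the promoter with mRNA at 645.2 TPM at 30 min and 1744.0 TPM at 15 min.

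The largest entropy rises were smaller than the largest falls. CAF120, a component of the Ccr4-Not complex of mRNA deadenylation, lies on chromosome XIV between 113271 and 116453 and had a score of 7.166 at 30 min and 6.716 at 15 min (0.450). It stayed there, at 7.184 at 60 min and 7.185 at 120 min. PHM7, a membrane protein regulated by phosphate, had 7.160 at 30 min and 6.732 at 15 min (0.428), and its promoter rose as well (0.51 ± 0.12). DOG1, a sugar phosphatase, rose by 0.416, to 7.027 at 30 min against 6.611 at 15 min, and MOG1, a nuclear transport protein that binds Ran, by 0.376. CMK2, a calmodulin-dependent protein kinase, rose by 0.345, with mRNA at 860.3 TPM at 30 min and 332.2 TPM at 15 min.

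MET31, one of the DNA-binding regulators of sulfur assimilation, rose by 0.376 in entropy, to 7.082 at 30 min against 6.706 at 15 min. Its log2 mRNA difference was -1.04, which made it the one gene of the 100 with an entropy rise and mRNA lower by at least 1. CPS1, a vacuolar carboxypeptidase, rose by 0.339 in entropy and by 0.75 ± 0.12 at the promoter, with 363 fragments at 30 min and 190 at 15 min. TOH1, which converges with CPS1 at a distance of 236 bp, rose by 0.323, and ASG7 next to it by 0.231, so that 3 consecutive genes rose. ADD37, a factor of endoplasmic reticulum degradation, rose by 0.334, URA6, the uridylate kinase, by 0.321, TDH1, a stress-inducible isozyme of glyceraldehyde-3-phosphate dehydrogenase, by 0.256, and YCF1, the vacuolar transporter of glutathione conjugates of cadmium, by 0.211. YNL092W and YOR289W, also in the first 10, rose by 0.356 and 0.326.

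The entropy rises were still present later in the course. The 100 gene bodies that rose had median scores of 6.55, 6.526, 6.592, 6.822, 6.889 and 6.928 from 0 to 120 min, of which the 15 and 30 min values chose them. The score at 60 min was above that at 0 min in 98 of the 100, against 54.6% of all ORFs. The 44 gene bodies whose entropy fell had medians of 6.744, 6.928, 6.931, 6.602, 6.656 and 6.800 over the same times, and the score at 60 min was below that at 0 min in 19 of them (43.2%, against 45.0% of all ORFs). Scaled occupancy at 60 min was above that at 0 min in 49 of the 65 promoters that rose (75.4%, against 46.9% of all ORFs).

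Of the 251 ORFs counted in either measure, 23 changed in both. Both measures fell in 10 (SSE1, HSP82, KSP1, CPR6, HSP104, YDJ1, OLA1, SSA4, CUR1 and STE6), and all but KSP1, OLA1 and STE6 are in the chaperone list. Both rose in 9 (CPS1, PDC6, YGR122W, MOG1, PHM7, CSG2, CSS3, FMP40 and GCY1). In the opposite sense, BDS1, TAF10 and UNG1 fell at the promoter and rose in entropy, and YAR1 rose at the promoter (0.51 ± 0.16) and fell in entropy. Entropy fell at 15.4% of the promoters that fell, against 0.994% of all ORFs, and the promoter fell at 22.7% of the gene bodies whose entropy fell, against 1.47% of all ORFs. Entropy rose at 13.8% of the promoters that rose, against 2.26% of all ORFs, and the promoter rose at 9.0% of the gene bodies whose entropy rose, against 1.47%. Across the 4423 ORFs whose mean TPM was 1 or more, the Spearman correlation of promoter and entropy changes was 0.0649, a description across ORFs that share the same libraries.

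BDS1, a bacterially derived sulfatase that frees sulfate from alkyl sulfates, was among the opposed cases. Its promoter had 149 fragments at 30 min and 203 at 15 min (-0.54 ± 0.14), its entropy was 7.031 at 30 min and 6.791 at 15 min, and its mRNA was 469.1 TPM at 30 min and 70.6 TPM at 15 min. It was the one promoter of the 65 that fell with mRNA higher by at least 1.

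Glutathione binds cadmium, and sulfur metabolism supplies the cysteine for it. Of 29 genes of sulfur metabolism, 0 promoters reached the size counted and 1 gene body rose, MET31. Over all ORFs, 1.47% of promoters rose and 1.47% fell, and 2.26% of gene bodies rose and 0.994% fell. Counts in this and the following lists stand beside these shares, and 1 or 2 changed genes are not read as a result about a list. SUL1, the sulfate permease, had 403 fragments at 30 min and 261 at 15 min (0.46 ± 0.11), and an entropy of 7.218 at 30 min and 7.216 at 15 min. MET6, the methionine synthase, had a promoter change of -0.37, and MET30, a ubiquitin ligase subunit of the pathway, an entropy difference of 0.108. The median entropy of the sulfur genes was 7.120 at 30 min and 7.108 at 15 min, after 6.844 before cadmium, so it was already high before this step. Of 10 glutathione genes, 0 promoters changed and 1 gene body rose, YCF1. GSH1 and GSH2, the enzymes of glutathione synthesis, had promoter changes of 0.10 and 0.22, and ECM38, which breaks glutathione down in the vacuole, had 0.28. None of these 3 reached the size counted.

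Folding in the endoplasmic reticulum and the proteasome are the other branches of protein quality control. Of 14 folding genes of the endoplasmic reticulum, 1 promoter rose (SIL1) and 0 fell, and 0 gene bodies reached the size counted. An entropy difference above 0 was seen in 13 of the 14, against 65.9% of all ORFs. The median of the 14 genes was 0.096, or 0.062 after the column medians were subtracted. LHS1, an Hsp70-like chaperone of that compartment, had a promoter change of 0.39, and MPD1, a disulfide isomerase, an entropy difference of 0.184. Of 30 proteasome genes, 1 gene body fell (RPN4), and the medians were 0.065 at the promoter and 0.014 in entropy. RPN8, a subunit of the regulatory lid, had a promoter change of -0.31, and RPT4, an ATPase of the base, an entropy difference of 0.139. Their median log2 mRNA difference was 0.813, and that of the endoplasmic reticulum list was 1.1.

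Antioxidant and carbohydrate lists showed small shifts. Of 15 antioxidant genes 1 promoter rose, CTT1, with a median of 0.16. YAP1, the oxidative stress regulator, had a promoter change of 0.42, and OYE2, an NADPH oxidoreductase, and TRR2, the mitochondrial thioredoxin reductase, had entropy differences of 0.151 and 0.098. In the trehalose and glycogen list 13 of 14 promoters were above 0 (92.9%, against 53.6% of all promoters), with a median of 0.17 and 0 past the size counted, led by the trehalase NTH1 (0.46) and by TPS3 (0.43), a regulatory subunit of trehalose synthesis. TPS1 and TPS2, the enzymes of that synthesis, had entropy differences of 0.192 and 0.170.

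The iron regulon is induced when iron is scarce. Of 25 iron regulon genes, 2 promoters rose, FET5 and ARN2, and 1 gene body fell, CTH1 (-0.324), an mRNA-binding protein that promotes decay of iron-using transcripts, whose mRNA was 72.4 TPM at 30 min and 225.5 TPM at 15 min. MRS4, a mitochondrial iron carrier, had an entropy difference of 0.148. The 18 citrate and glyoxylate cycle genes had 1 promoter rise, CIT2, with a promoter change of 0.42 at LSC2, a succinyl-CoA ligase subunit, and entropy differences of 0.153 and 0.154 at IDH1 and IDH2, the subunits of isocitrate dehydrogenase. The 18 respiration genes had 0 changes in either measure. Promoter changes were 0.34 at ATP1, an ATP synthase subunit, and 0.27 at SDH4, a subunit of succinate dehydrogenase, and entropy differences were -0.185 at COX4, a cytochrome oxidase subunit, and 0.136 at SDH3. Of 22 autophagy and vacuole genes, 1 promoter (CPS1) and 2 gene bodies (CPS1 and ATG17) rose, while ATG9, a membrane protein of autophagosome formation, had changes of 0.45 at the promoter and -0.161 in entropy.

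Most genes in the lists of ribosome assembly and ribosomal proteins reached the size counted in neither measure, and mRNA was lower for the cytosolic ribosome. The 108 ribosome biogenesis genes had a median log2 mRNA difference of -1.13. Of their promoters 2 fell, NOP7 and MAK16, against 1.47% of all promoters. Entropy rose in 1 of the 108, NOB1 (0.275), against 2.26% of all gene bodies. The median promoter change of the 108 genes was -0.081, which became 0.047 with the columns as deposited, against 0.14 for all ORFs. MPP10, a component of the small-subunit processome, had 0.38 at the promoter and 0.188 in entropy. The 43 small-subunit and 68 large-subunit ribosomal protein genes had median mRNA differences of -1.48 and -1.44 and median promoter changes of 0.021 and 0.027. Of their promoters RPS7A (-0.51) and RPL9A (-0.53) fell and RPL25 rose, and RPS1B had 0.32. Entropy fell at 5 of these 111 genes (4.5%, against 0.994% of all ORFs). The 46 mitochondrial ribosomal protein genes had a median mRNA difference of 0.06. Among them, MRPL17 (-0.63) and RSM23 (-0.60) fell at the promoter, and IMG1 and MRPL10 had entropy differences of 0.179 and 0.135.

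Of the 29 genes of RNA polymerase I and III and the 19 aminoacyl-tRNA synthetase genes, 0 changed in either measure. RPA190 and RPO31, the largest subunits of polymerases I and III, had promoter changes of 0.34 and -0.34, and the polymerase I factors RRN11 and RPA49 had entropy differences of 0.131 and 0.123. Among the synthetases, DED81 and TYS1, for asparagine and tyrosine, had promoter changes of 0.36 and -0.34, and DPS1 and FRS2, for aspartate and phenylalanine, had entropy differences of 0.106 and 0.105. Among 26 translation factors STM1 alone changed, with a promoter change of -0.36 at TIF5, the initiation factor eIF5, and an entropy difference of -0.110 at CDC33, the cap-binding protein eIF4E. Of 49 amino acid synthesis genes, LEU9 (-0.309), an enzyme of leucine synthesis, and ILV2 (-0.252), of branched-chain synthesis, fell in entropy, and SER3 and ARG7, of serine and arginine synthesis, had promoter changes of 0.48 and 0.43. The mRNA of LEU9 was 17.1 TPM at 30 min and 128.0 TPM at 15 min. Among 29 nucleotide synthesis genes, URA6 and ADE17 (0.212), an enzyme of purine synthesis, rose in entropy, and URA8, a CTP synthase, had 0.41 at the promoter.

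In the remaining lists single genes changed. Of 24 ergosterol genes HMG1 fell at the promoter, with a promoter change of -0.34 and an entropy difference of -0.199 at IDI1, the isopentenyl diphosphate isomerase, and -0.122 in entropy at ERG13, the HMG-CoA synthase. Of 22 cell wall genes TIP1 fell at the promoter and PST1 (0.201), a cell wall protein induced by wall damage, rose in entropy. SCW10, a glucanase-like wall protein, had 0.44 at the promoter, and CHS1, a chitin synthase, 0.162 in entropy. Of 18 cyclins and regulators of the start of the cell cycle CLB2 fell, with -0.38 at the promoter of PCL9 and -0.124 and 0.099 in entropy at PCL5 and CLN2, which are also cyclins. Of 15 general stress regulators YAP6 fell at the promoter, with entropy differences of 0.161 and 0.133 at CAD1 and YAP5, members of the same transcription factor family. Of 41 genes of chromatin remodelers, RSC8, a subunit of the RSC remodeler, rose in entropy (0.223), with promoter changes of 0.36 at the remodeler ATPase INO80 and -0.34 at RSC30 and an entropy difference of 0.160 at SFH1, both of them RSC subunits. The 9 hexose transporter and glucose sensing genes and the 2 histone genes in the tables had 0 changes. RGT1, the glucose-responsive repressor, and HXT2 had promoter changes of -0.33 and 0.31, and HXT4 and HXT3 had entropy differences of 0.064 and -0.054. CSE4, the centromeric histone, and HHO1, the linker histone, had entropy differences of -0.063 and 0.087. BAR1, another a mating type gene, had -0.03 and -0.055, and the alpha genes STE3 and SAG1 had promoter changes of 0.32 and 0.25.

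**Figure D4:**
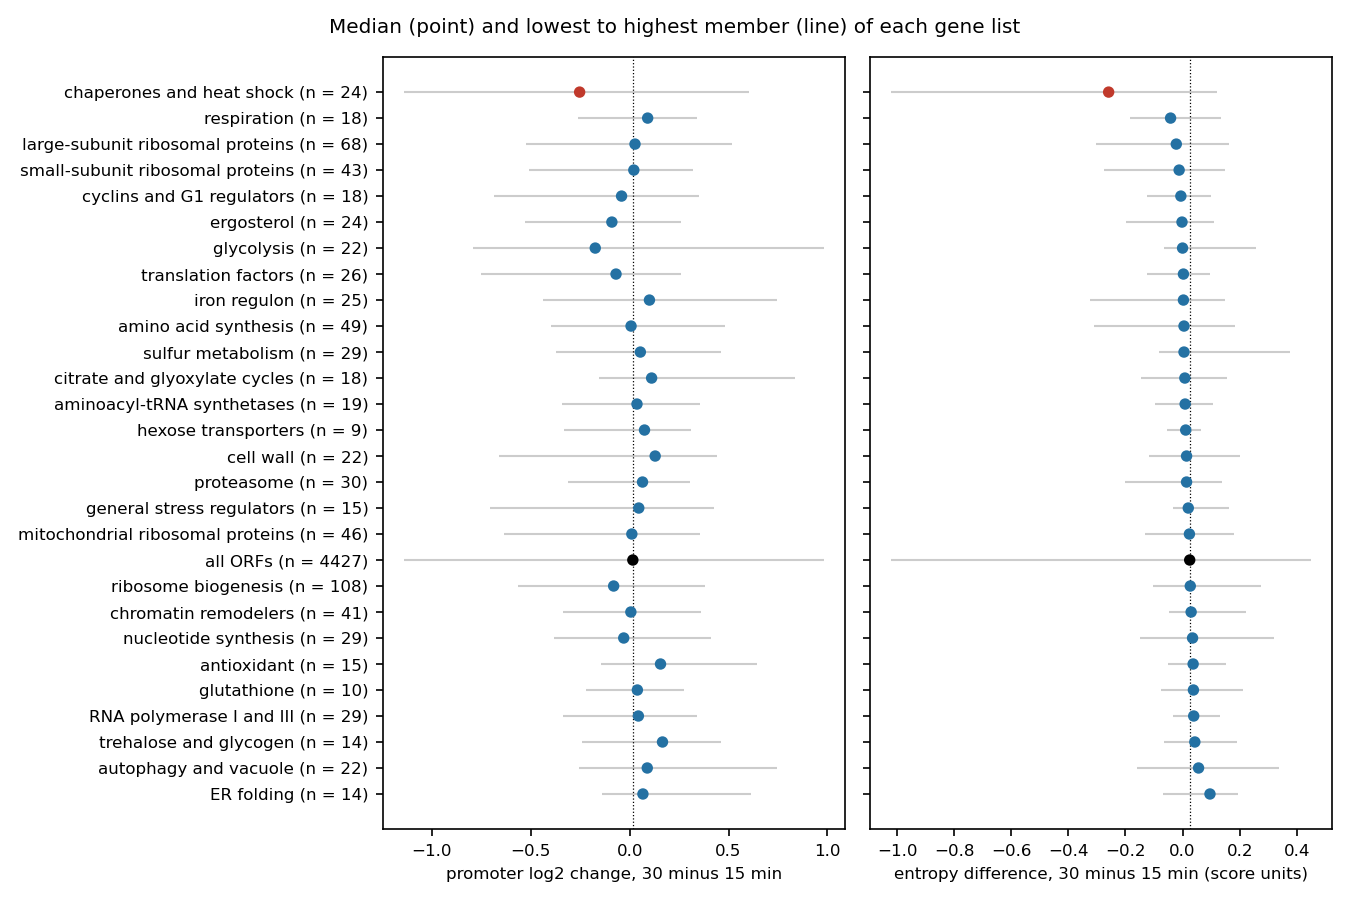
Median (point) and lowest to highest member (line) of each gene list, without the mating type and histone lists of 2 or 3 genes, for the promoter change (left, log2) and the entropy difference (right, score units) at 30 min relative to 15 min; the dotted line is the median of all ORFs. The chaperone list (red) stands at -0.25 and -0.26, while every other list drawn has an entropy median between -0.042 and 0.096.

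Chromatin changes were set beside mRNA changes of the same ORFs, taken as differences of log2(TPM + 1), a scale that understates changes of weakly expressed genes. Of the 4427 ORFs, 236 had mRNA higher by at least 1 at 30 min (5.33%) and 301 had mRNA lower by at least 1 (6.80%). Among the 44 gene bodies whose entropy fell, 23 had lower mRNA (52.3%) and 0 higher. Among the 100 whose entropy rose, 34 had higher mRNA (34.0%) and 1 lower. Of the 65 promoters that rose, 24 had higher mRNA (36.9%) and 2 lower. Of the 65 that fell, 14 had lower mRNA (21.5%) and 1 higher.

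Across the 4423 ORFs the Spearman correlation with the mRNA difference was 0.249 for promoters and 0.245 for entropy. Counted changes were most frequent among the ORFs with the largest mRNA increases and decreases. In the tenth of ORFs with the largest mRNA increase, the median promoter change was 0.134 with 29 rises and 2 falls, and the median entropy difference was 0.062 with 47 rises and 0 falls. In the tenth with the largest mRNA decrease, the median promoter change was -0.053 with 3 rises and 21 falls, and the median entropy difference was -0.002 with 3 rises and 26 falls. ORFs are not independent replicates, and these values describe the libraries compared.

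**Figure D5:**
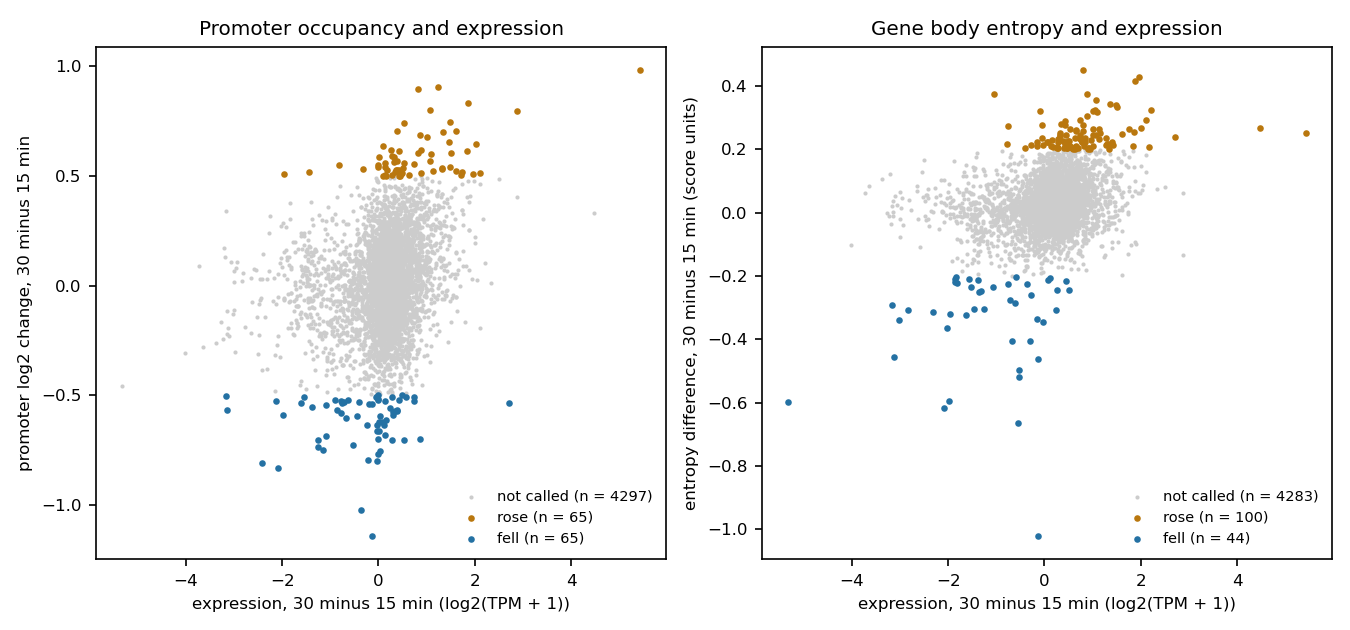
Promoter change (left, log2) and entropy difference (right, score units) of each ORF against its expression difference, log2(TPM + 1), at 30 min relative to 15 min, with ORFs counted as risen in orange and as fallen in blue. Most blue points of the entropy panel lie at or left of 0 on the x axis, and most orange points lie right of it.

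Against the other steps of the course, this one had intermediate numbers of changes. Promoter rises and falls numbered 116 and 46 at 7.5 against 0 min, 71 and 114 at 15 against 7.5 min, 65 and 65 at 30 against 15 min, 69 and 32 at 60 against 30 min, and 14 and 57 at 120 against 60 min. Entropy rises and falls numbered 80 and 179, 129 and 143, 100 and 44, 73 and 22, and 47 and 22 in the same order of steps. Consecutive steps share a column, so their counts are not independent of each other.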

How the data were processed

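Each assay has 2 samples per time point in the labels, but each of the 3 deposited tables holds 1 column per time point. The authors deposited small-fragment counts for promoters, an entropy score for gene bodies and TPM for expression. Bowtie 0.12.7 and the builds sacCer3 and R64 appear in the submitters' processing notes. The fragment lengths, promoter and gene body windows, entropy formula and pooling of replicates are not given in the sources used here.

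From the deposited counts, columns were divided by their median, a pseudocount of 0.1 was added and log2 differences taken, with Poisson counting errors, which cover counting only. Entropy was subtracted directly. ORFs were matched to the RefSeq R64 gene table (4427 of 4427), which gave symbols and positions. Calculations used Python 3.11.15, NumPy 2.4.6, pandas 2.3.3 and matplotlib 3.10.9, and were checked on simulated data. Alternatives were other scalings, pseudocounts, thresholds and filters.

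Genes named were the 10 largest rises and falls in each measure, the 2 largest changes of each list in each measure, and the 3 foremost per direction pair among genes changed in both. Others were named after their values were seen, and 1 gene is not reported here by name. The gene lists and rules were chosen with earlier results of these data known. Of 984 listed genes, 792 were in the chromatin tables, and ARG5,6 and ADE5,7 were not matched by symbol.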

Additional observations from a re-analysis of the deposited data

How the results depend on the processing

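No paired analysis was possible because the tables hold 1 column per time point and none per replicate. Leaving out a replicate was not run for the same reason. Promoter changes numbered 130. They numbered 214 with the columns as deposited (189 higher and 25 lower, 88.3% higher), 124 with columns divided by their total (34.7% higher), 248 with no pseudocount, 18 with a pseudocount of 0.4, 685 at a threshold of 0.3, 2 at a threshold of 1 and 78 past 3 counting errors. Of the 130 promoters, 90 were also counted as deposited, 108 by total and 18 with the larger pseudocount. Of the 10 chaperone promoters, 7, 10 and 6 were. Entropy changes numbered 144, against 116 with column medians subtracted (50 higher and 66 lower), 108 after quantile normalization (51 and 57), 879 at a threshold of 0.1 and 37 at 0.3. Of the 144 gene bodies, 94 were also counted with column medians subtracted and 95 after quantile normalization. All 15 chaperone falls in entropy remained under both scalings. Subtracting the column medians (6.601 at 30 min and 6.567 at 15 min) lowers every difference, so no fall could be lost by it. The Pearson correlation of promoter and entropy changes was 0.138, against a Spearman value of 0.0649. No sign changed among the counted genes under the scalings and pseudocounts run. Of 996 other comparisons of single genes and list medians with an alternative, 969 moved by less than their error or tolerance and 27 by more. All 27 were promoter changes of single genes under another pseudocount. Fragment depth limits promoters with few fragments, where the counting error was above 0.2. The causes of these differences were not tested.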

Other observations

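Promoter changes were concentrated where few small fragments lay before cadmium. In the quintile of promoters with 13 to 81 fragments at 0 min, 28 rose and 33 fell, whereas in the quintile with 238 to 564 fragments 1 rose and 2 fell. Counting error is largest in the lowest quintile, and its part in these counts was not tested. Entropy followed another order. In the quintile of gene bodies with the highest entropy before cadmium (6.88 and above), 3 rose and 16 fell and the median difference was -0.001. The lowest quintile (5.94 to 6.43) had 24 rises and 9 falls and a median of 0.032. No score at any time was above 7.235, which limits how far the highest quintile could rise. The part of this limit in the counts was not tested. In the quintile of genes with the highest mean expression, 17 promoters rose and 27 fell and 28 gene bodies rose and 26 fell. Median promoter changes per chromosome ran between -0.017 and 0.039 over the 16 chromosomes, and median entropy differences between 0.015 and 0.042.

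Neighbouring genes were compared by their orientation. Over 922 divergent pairs, whose start sites face away from each other across a shared upstream region, the Spearman correlation of promoter changes was 0.486. Over 1606 tandem pairs it was -0.00131 and over 952 convergent pairs 0.0212. For entropy the correlations were 0.142, 0.0589 and 0.0825. In 4 divergent pairs (EDC3 and NPP2, RGD2 and EMP47, MAS2 and THR1, KOG1 and IKI1) both genes had identical fragment counts at every time, so the same fragments were counted for both. HSP82 and YAR1, a divergent pair 858 bp apart, moved in opposite ways at the promoter (-0.83 and 0.51) and fell together in entropy (-0.616 and -0.321). SIS1 and LST8, 501 bp apart, had promoter changes of -0.38 and -0.39 and entropy differences of -0.315 and -0.246. TDA6 and CUR1, in tandem 592 bp apart, had promoter changes of 0.69 and -0.50.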
